A study of Bos taurus with 8 samples.

Results

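Interleukins are small secreted proteins through which immune and tissue cells signal to each other, and their receptors are membrane chains that pass the signal on through JAK kinases and STAT factors or, for the IL1 and IL17 families, through NF-kB. Some members end or blunt a signal, as a soluble antagonist or as a decoy receptor that binds the ligand without signalling. In the lung, macrophages and recruited leukocytes make IL1B, IL6 and IL10, while epithelial and endothelial cells hold IL33 ready for release on injury. The genes described here are the interleukins and interleukin receptors of the newborn calf lung. They were taken as every array probe whose accession maps to a bovine symbol that starts with IL and a number, with IL8, its receptors and the ILF, ILK and ILV genes left out. A probe had to be well above background on at least 1 of 8 arrays, and the brightest probe stood for a gene. Of 83 such symbols in the gene table, 44 had a matched probe and 31 were well above background somewhere. The 31 genes comprise 14 ligands, 14 receptor chains and 3 antagonists or decoys, among 11054 named genes on the array. IL7R, IL6ST, IL1R1, IL1RL1, IL10RA and IL17RA are among the 39 symbols without a matched probe and were not analysed here.

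The lungs came from 4 cloned Holstein calves, dead of respiratory failure by day 4, and from 4 naturally conceived, healthy Holstein calves slaughtered at day 4. Each animal had 1 array, and the labels give 4 days for all 8 animals. No label names the donor cells of the clones, so whether they share a genome is unknown, and p-values measure the spread between these animals. Whole lung RNA was used, so fewer cells of a type and less RNA per cell cannot be told apart. The study set the lungs of clones with respiratory distress against normal lungs, with surfactant in view. Values below are log2 processed signal minus the 75th percentile of the array, and a level of 1 probe is not set against that of another.

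Detection reached 78.8% to 80.6% of spots on clone arrays and 80.4% to 83.5% on normal arrays. All 4 clones lay on 1 slide and all 4 normal calves on another, so slide and group cannot be told apart. Over all tested probes the normal calves correlated with each other at r of 0.984 to 0.989. Clones 2 and 4 correlated at 0.988, while every other pair of clones lay between 0.907 and 0.931, so clones 1 and 3 stood apart from the other animals and from each other. The 7 alveolar epithelial markers, which bear the lung label, were all tested, and their mean ranged from 4.87 to 5.17 in clones and from 5.14 to 5.22 in normal calves. The 10 spike-in controls were higher on the clone arrays relative to the 75th percentile, by a median of 0.67, and centring on them instead moved the median difference of all probes to -0.71. Small positive differences below are therefore relative to the other transcripts of the array, and many turn negative on the spike-in scale.

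No interleukin gene passed the test between clones and normal calves. Of the 31 genes, 26 were well above background on at least 4 of 8 arrays and were tested, 23 of them on all 8 arrays, and 0 had an adjusted p under 0.05 (limma), against 0.182% of all 9867 tested genes. An unadjusted p under 0.05 was reached by 4 of the 26, against 13.0% of all tested genes. The groups were fully separate in 3 of the 26, against 9.83% of all tested genes. Both shares are near those of the array as a whole. The log2 differences were positive in 14 genes and negative in 12, with a median of 0.04 beside -0.02 over all tested genes, and they ranged from -2.86 for IL1R2 to 1.56 for IL6.

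**Figure D1:**
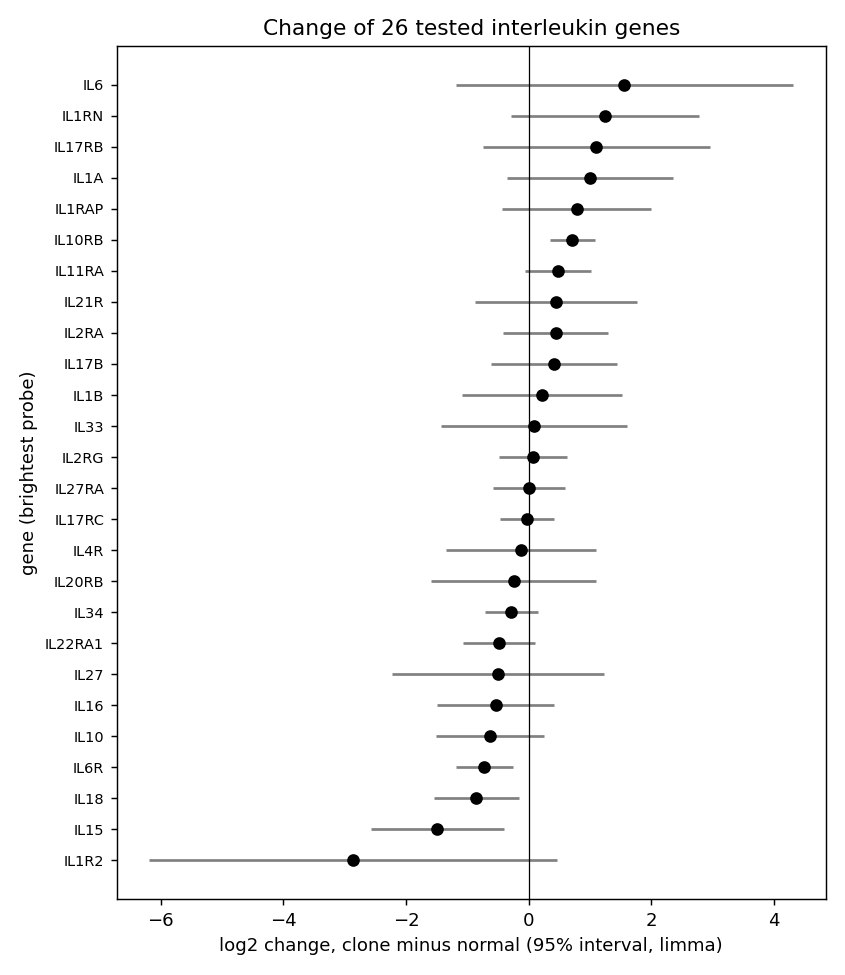
Log2 difference, clone minus normal, for the 26 tested interleukin genes, with its 95% interval from limma on the x axis and the genes on the y axis in order of the difference. The intervals of IL10RB, IL6R, IL18 and IL15 leave out 0, and those of IL1R2 and IL6 are the widest.

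The clones lay farther from each other than the normal calves did. The SD among clones exceeded that among normal calves in 24 of 26 interleukin genes, or 92.3%, and in 91.1% of all tested genes, so this is a feature of the whole array. Clone 4 was the lowest of the 4 clones in 12 of 26 interleukin genes, or 46.2%, beside 15.1% of all tested genes. Clone 1 or clone 3 was the highest clone in 22 of 26, or 84.6%, beside 66.1% of all tested genes. Clone 2 was the highest in 1 gene, IL11RA. The median deviation of the 26 genes from the normal mean was 0.59 in clone 1, -0.12 in clone 2, 0.33 in clone 3 and -0.39 in clone 4.

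**Figure D2:**
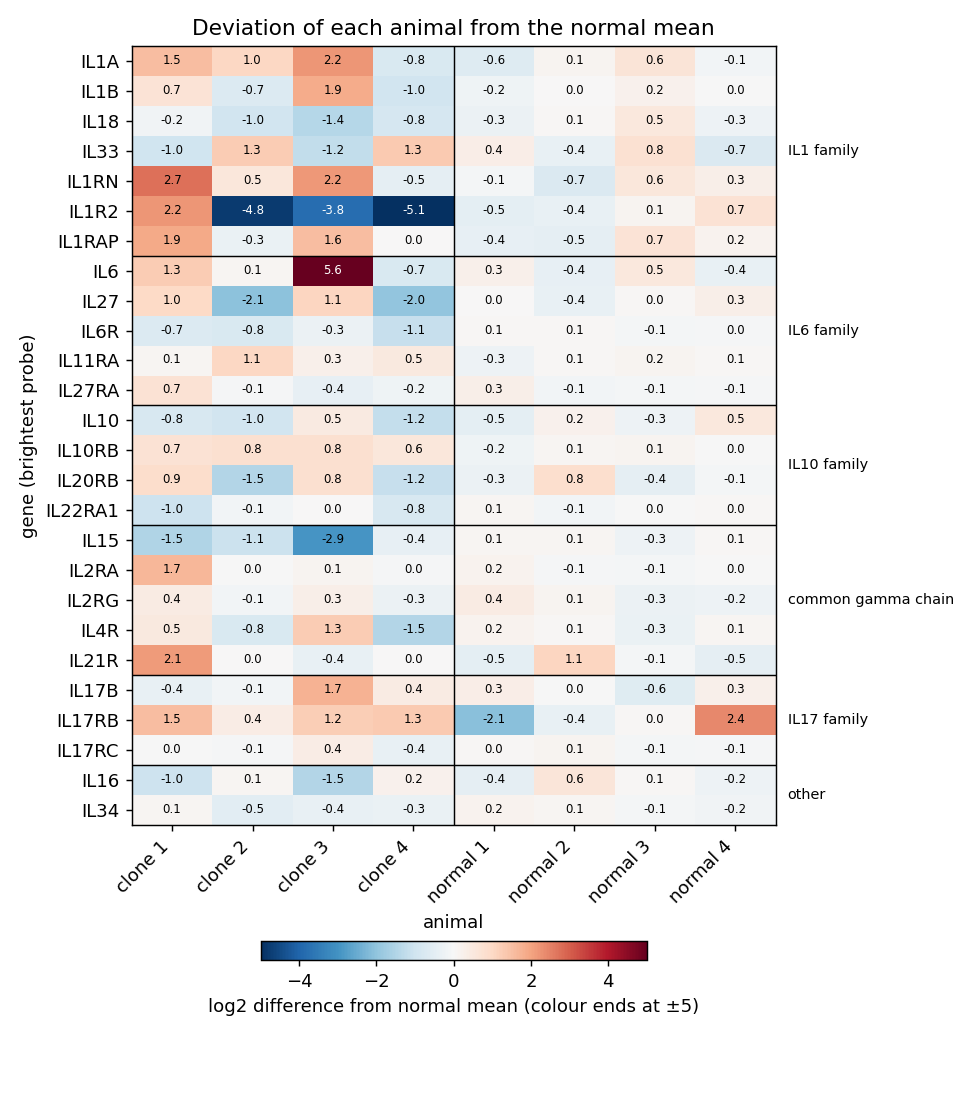
Deviation of each animal (columns, clones on the left) from the mean of the 4 normal calves, in log2 units, for the 26 tested interleukin genes (rows, grouped by family). Red is above and blue below the normal mean, and IL6 in clone 3 and IL1R2 in clones 2, 3 and 4 are the deepest cells.

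Among the ligands of the IL1 family, IL1A and IL1B, the alarm cytokines that start fever and leukocyte recruitment, separated the clones from each other. IL1B measured 3.20, 1.83, 4.38 and 1.55 in clones 1 to 4, against 2.29, 2.54, 2.73 and 2.50 in normal calves 1 to 4. Clones 1 and 3 lay above every normal calf and clones 2 and 4 below every one. The highest clone was 7.11-fold above the lowest. IL1B averaged 2.74 ± 1.31 in clones and 2.52 ± 0.18 in normal calves (SD, n = 4 each). The difference was 0.22 (95% interval -1.08 to 1.52, adjusted p = 0.909). Its 4 probes gave differences between 0.22 and 0.52, and without clone 3 the difference was -0.33. IL1A measured -0.12, -0.61, 0.58 and -2.40 in clones 1 to 4, against -2.28, -1.52, -1.01 and -1.78 in normal calves 1 to 4. Clones 1, 2 and 3 lay above every normal calf and clone 4 below every one. The difference was 1.01 (95% interval -0.34 to 2.36, adjusted p = 0.521), with 1.24 on its other probe.

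The natural antagonist and the decoy receptor of IL1 were both highest in clone 1. IL1RN, which occupies the receptor without activating it, measured 4.41, 2.23, 3.86 and 1.21 in clones 1 to 4, against 1.57, 0.94, 2.24 and 1.97 in normal calves 1 to 4. On this probe, the brightest, clones 1 and 3 were the highest of the 8 animals, and clones 2 and 4 lay within the normal range. On the other probes clone 4, at -2.22 and -4.70, lay below every normal calf. On the first of these clone 3, at -0.544, lay just below normal calf 3, at -0.537. IL1RN differed by 1.25 (SE 0.67, adjusted p = 0.482), and its 3 probes gave 0.53 to 1.25. IL1R2, the decoy receptor carried by neutrophils and macrophages, measured 0.34, -6.67, -5.71 and -6.95 in clones 1 to 4, against -2.37, -2.26, -1.74 and -1.16 in normal calves 1 to 4. Clone 1 was above every normal calf and the other 3 clones were below every one, and the probe was not well above background in clones 2 and 4, so their values are limits. Its difference of -2.86 did not pass (95% interval -6.19 to 0.46, adjusted p = 0.454) and was -1.36 or -0.89 after normexp background correction. Without clone 1 it was -4.56 (adjusted p = 0.00361), in a comparison in which 7.19% of all probes passed.

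**Figure D3:**
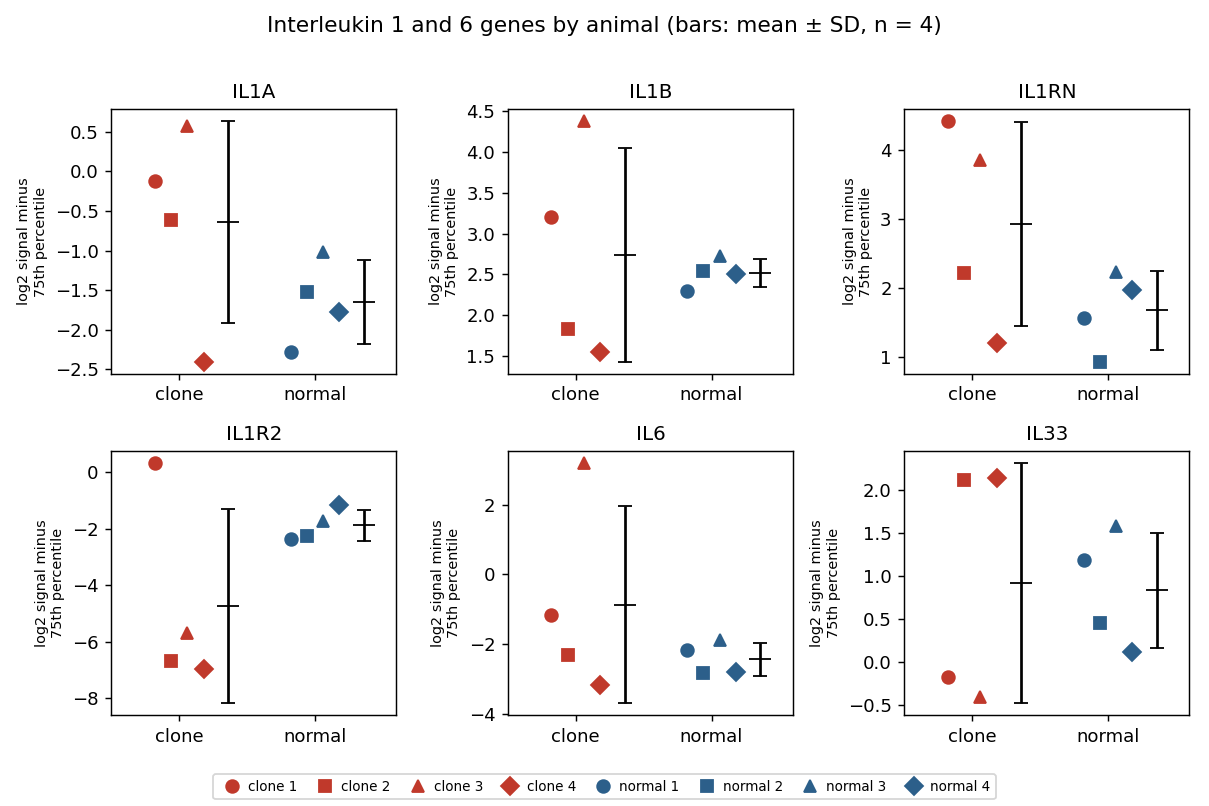
Log2 signal minus the 75th percentile (y axis) for 6 interleukin genes in each of 4 clones (red) and 4 normal calves (blue), with 1 symbol per animal number and the mean ± SD at the right of each group. In IL1B, IL1RN and IL6 the highest animals are clones 1 and 3, and in IL33 the lowest are.

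IL33, the alarmin stored in the nuclei of barrier cells, had the opposite order. It measured -0.18, 2.11, -0.41 and 2.15 in clones 1 to 4, against 1.18, 0.45, 1.58 and 0.12 in normal calves 1 to 4. Clones 2 and 4 were the highest of the 8 animals and clones 1 and 3 the lowest, and the second IL33 probe ordered the clones in the same manner, at -3.21, -0.91, -3.35 and -0.72. The group difference was 0.08 on the brighter probe and -0.15 on the other (adjusted p = 0.972 and 0.948). IL18, which a caspase activates and which drives interferon gamma production, measured -1.09, -1.87, -2.35 and -1.76 in clones 1 to 4, against -1.22, -0.87, -0.41 and -1.18 in normal calves 1 to 4. Clones 2, 3 and 4 lay below every normal calf and clone 1 among them. The log2 difference was -0.85 (SE 0.30, 95% interval -1.54 to -0.16, adjusted p = 0.280), and without clone 1 it was -1.07 (adjusted p = 0.0488). IL1RAP, the accessory chain shared by the receptors for IL1 and IL33, differed by 0.79 (adjusted p = 0.581) with clones 1 and 3 above every normal calf.

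In the IL6 family the group mean of the ligand rested on a single clone. IL6, the fever and acute phase cytokine, measured -1.17, -2.32, 3.20 and -3.18 in clones 1 to 4, against -2.17, -2.84, -1.89 and -2.81 in normal calves 1 to 4. Clone 3 stood far above all other animals, 83.3-fold above clone 4, and clone 1 was also above every normal calf. IL6 averaged -0.87 ± 2.83 in clones and -2.43 ± 0.47 in normal calves (SD, n = 4 each), and the difference of 1.56 (95% interval -1.19 to 4.32, adjusted p = 0.637) was 0.21 without clone 3. Both of its probes placed clone 3 highest. IL27, a subunit of a macrophage cytokine that tunes T cells, measured -2.86, -5.92, -2.79 and -5.84 in clones 1 to 4, against -3.84, -4.21, -3.81 and -3.56 in normal calves 1 to 4. As in IL1B, clones 1 and 3 lay above and clones 2 and 4 below every normal calf, and the difference was -0.50 (adjusted p = 0.830).

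The receptor IL6R, the ligand-binding chain for IL6, was lower in every clone than in every normal calf. It measured -0.33, -0.39, 0.06 and -0.78 in clones 1 to 4, against 0.43, 0.43, 0.28 and 0.32 in normal calves 1 to 4. The clones averaged -0.36 ± 0.34 and the normal calves 0.36 ± 0.08 (SD, n = 4 each), so the difference was -0.72 (SE 0.20, 95% interval -1.19 to -0.26), or 1.65-fold lower in clones. The unadjusted p was 0.00683 and the adjusted p 0.204, so the difference did not pass. On its second probe the difference was -0.57 and clone 3 overlapped the normal calves. Clone 3, the animal with the most IL6 signal, had the highest IL6R value of the clones. The related chains IL11RA and IL27RA differed by 0.47 and 0.01 (adjusted p = 0.443 and 0.993). IL11RA was above every normal calf in clones 2, 3 and 4 on this probe. On its other probe, with a difference of 0.21, clones 2 and 3 were. Clone 4, at -3.29, lay there within the normal range of -3.93 to -3.21. On the spike-in scale the IL11RA difference was -0.21, and that of IL27RA also turned negative in several settings.

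IL10RB, the receptor chain shared by IL10, IL22 and the lambda interferons, had the smallest p of all interleukin genes. It measured 1.54, 1.62, 1.64 and 1.40 in clones 1 to 4, against 0.64, 0.92, 0.96 and 0.81 in normal calves 1 to 4. All 4 clones were above all 4 normal calves, and here the clones lay as close together as the normal calves did, at 1.55 ± 0.11 in clones and 0.83 ± 0.15 in normal calves (SD, n = 4 each). The log2 difference was 0.72 (SE 0.16, 95% interval 0.35 to 1.08), or 1.64-fold, with an unadjusted p of 0.00172 and an adjusted p of 0.136. A second probe gave 0.75 with no overlap, and the dimmest probe gave 0.41 with overlap. Without clone 1 the adjusted p was 0.0366. Centred on the spike-in controls the difference was 0.03, so the higher level in clones is relative to the other transcripts of the array.

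**Figure D4:**
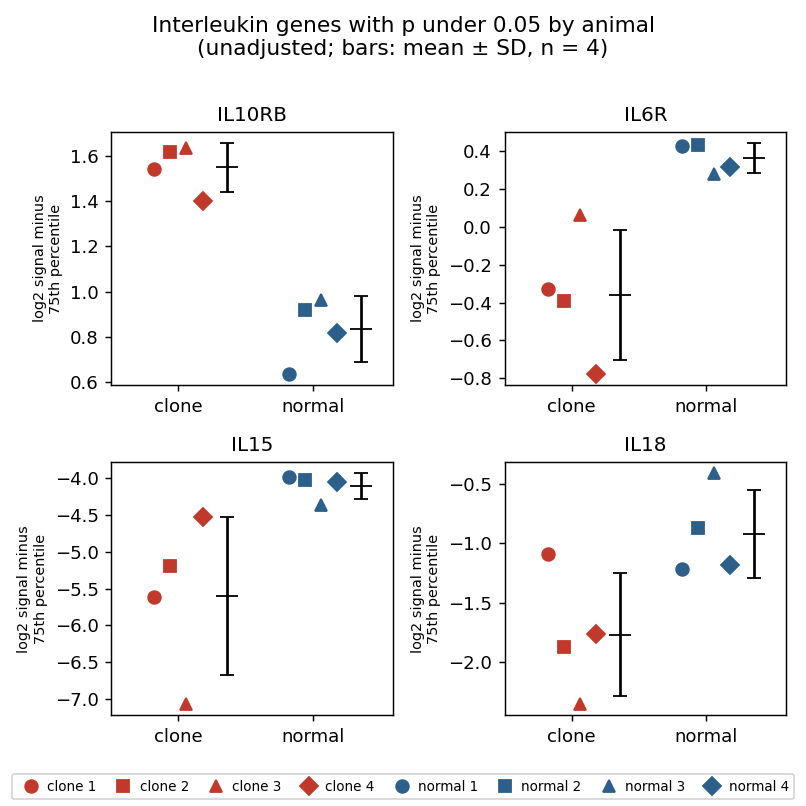
Log2 signal minus the 75th percentile (y axis) in each of 4 clones (red) and 4 normal calves (blue) for the 4 interleukin genes with an unadjusted p under 0.05, with 1 symbol per animal number and the mean ± SD beside each group. The groups do not overlap in IL10RB, IL6R and IL15, and in IL18 clone 1 lies among the normal calves.

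The ligand IL10, which restrains macrophages, measured -2.22, -2.36, -0.94 and -2.59 in clones 1 to 4, against -1.88, -1.18, -1.66 and -0.89 in normal calves 1 to 4. Clones 1, 2 and 4 were below every normal calf, while clone 3 lay near the top of the normal range. The difference was -0.62 (SE 0.39, adjusted p = 0.547) on the brighter probe and -1.61 on the other. IL20RB, a receptor chain of skin and airway epithelium, differed by -0.24 and IL22RA1, the epithelial chain for IL22, by -0.49 (adjusted p = 0.902 and 0.471). IL22RA1 was below every normal calf in clones 1, 2 and 4.

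In the family that signals through the common gamma chain, IL15, the survival factor of natural killer and memory CD8 T cells, was lower in every clone than in every normal calf. It measured -5.61, -5.20, -7.06 and -4.53 in clones 1 to 4, against -4.00, -4.03, -4.37 and -4.06 in normal calves 1 to 4. Its only probe was not well above background in clone 3, so that value is a limit. The log2 difference was -1.49 (SE 0.47, 95% interval -2.57 to -0.40, unadjusted p = 0.0128, adjusted p = 0.242). It was -0.9996 without clone 3 and -0.38 with normexp background correction and quantile normalization. T and natural killer cell markers, 13 of 14 tested, had a mean of -2.28 to -1.72 in clones and -1.88 to -0.90 in normal calves. Of the 13, 3 had a positive and 10 a negative difference, and 0 passed. The 2 with the smallest p, named after their values were seen, went opposite ways. CD8A, the CD8 T cell chain, measured -4.19, -1.88, -0.86 and -2.01 in clones 1 to 4, against -0.20, 0.68, 0.20 and 0.17 in normal calves 1 to 4 (log2 difference -2.45, adjusted p = 0.176). GZMB, a granule protease of cytotoxic T and natural killer cells, measured -1.29 to -0.07 in clones and -2.16 to -1.26 in normal calves (log2 difference 1.25, adjusted p = 0.180). CD2, CD27, CD3E and CD3G differed by -0.69, -0.55, -0.48 and -0.47. CD3D, CD4 and LCK, the least changed of the list, differed by -0.03, 0.04 and -0.12, and CD5 by 0.84. The part of these cells in the IL15 value was not tested.

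The receptors of this family had differences between -0.12 and 0.44. IL2RG, the common gamma chain itself, differed by 0.07 (95% interval -0.49 to 0.63), with values from -0.66 to 0.06 in clones and from -0.65 to 0.07 in normal calves. IL4R, the chain for IL4 and IL13, measured 0.92, -0.35, 1.68 and -1.03 in clones 1 to 4, against 0.59, 0.48, 0.11 and 0.52 in normal calves 1 to 4. It followed IL1B in that clones 1 and 3 lay above and clones 2 and 4 below every normal calf, and its difference was -0.12 (adjusted p = 0.952). Its 5 probes gave differences from -0.12 to 1.11 with both signs, and on the probe with 1.11 clone 4, at -3.88, lay above every normal calf (-5.19 to -4.75). IL2RA, the high-affinity chain of activated and regulatory T cells, measured -1.21 in clone 1 and between -2.92 and -2.74 in the other clones, against -2.99 to -2.70 in normal calves. Clone 1 was the highest animal on each of its 3 probes, but the other clones were placed differently. On another probe clones 2 and 4, at -3.14 and -3.92, lay below every normal calf (-2.93 to -2.73). On the dimmest, well above background in 2 of 4 clones, clones 2 and 4 again lay below every normal calf. There clone 3, at -4.83, lay above every one (-6.4 to -6.1). IL21R, a receptor of B and T cells, measured -0.88 in clone 1, between -3.37 and -2.96 in the other clones, and between -3.50 and -1.93 in normal calves. Clone 1 thus held the highest value of the 8 animals for both, as it did for IL1R2, IL1RN, IL1RAP, IL20RB and IL27RA. That makes 7 of 26 genes, or 26.9%, beside 26.4% of all tested genes, so the share is that of the whole array. A second IL21R probe did not set clone 1 apart, at -5.22 in clone 1 and between -5.80 and -5.18 in normal calves. The 3 tested markers of B and plasma cells, of 7 listed, had a mean of -0.48 in clone 1, -2.58, -3.14 and -2.94 in clones 2, 3 and 4, and -3.06 to -1.70 in normal calves. The 3 did not move together in clone 1. JCHAIN, the joining chain of secreted antibodies, measured 2.85 in clone 1 and -3.06 to -0.22 in normal calves, and MS4A1 measured -3.78 in clone 1 and -5.98 to -4.66 in normal calves. CD79A, part of the B cell receptor, measured -0.50 in clone 1, below every normal calf (-0.34 to -0.21). Their part in the values of clone 1 was not tested.

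The IL17 family was represented by IL17B, IL17RB and IL17RC among the tested genes. IL17B, a ligand of IL17RB, was highest in clone 3, at -0.86, with -2.97, -2.71 and -2.18 in clones 1, 2 and 4, against -3.18 to -2.25 in normal calves (log2 difference 0.41, adjusted p = 0.754). The IL17RB probe was detected in 4 of 4 clones but in 2 of 4 normal calves. It measured -6.10 to -4.95 in clones, within the much wider range of -8.56 to -4.07 in normal calves, so its difference of 1.11 did not pass (adjusted p = 0.617). IL17RC, the partner chain of the IL17A receptor, differed by -0.02 (95% interval -0.46 to 0.42), and its 4 probes gave -0.21 to -0.02. The remaining tested genes were IL16, a chemoattractant of CD4 cells, at -0.54, and IL34, a ligand of the macrophage growth factor receptor CSF1R, at -0.28 (adjusted p = 0.641 and 0.593). IL34 lay below every normal calf in clones 2, 3 and 4 on this probe. On its other probe, with a difference of -0.76, clones 2 and 3 did so. Clone 4, at -2.67, lay there within the normal range of -3.28 to -2.29.

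The remaining 5 of the 31 genes were well above background on 1 or 2 arrays, just inside the rule on detection, and were not tested. IL12B, IL17F and IL21 were each seen in 1 of 4 clones and 0 of 4 normal calves, IL12B and IL17F in clone 1 and IL21 in clone 2. IL12RB2 was seen in clone 3 and normal calf 2, and the decoy IL13RA2 in clone 1 and normal calf 3. No fold is given for these genes, since most or all of their values in both groups are limits. Just outside the rule were 13 genes whose probes stayed below that level on all 8 arrays, namely IL2, IL3, IL4, IL5, IL7, IL12A, IL13, IL17A, IL22, IL23R, IL31RA, IL36RN and IL1RL2. Of these, IL2, IL3, IL4, IL5, IL13, IL17A and IL22 are ligands of activated T cells.

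The genes that carry or answer interleukin signals gave no call either. Of 55 tested genes in 4 lists 0 had an adjusted p under 0.05, 7 had an unadjusted p under 0.05 and the groups did not overlap in 8. The shares over all tested genes were 0.182%, 13.0% and 9.83%. There were 29 positive and 26 negative differences, with a median of 0.01. In the JAK-STAT list, 14 of 23 genes were tested and 11 were positive, beside 4774 of 9867 over all tested genes. PTPN6, a phosphatase of leukocytes that ends cytokine signals, differed by -0.68, while PTPN2, a phosphatase of JAK kinases, differed by 0.57 and the feedback inhibitor SOCS2 by 0.46 (adjusted p = 0.242, 0.358 and 0.495). SOCS3, the feedback inhibitor induced by IL6, was chosen for display after its values were seen. It measured -3.49, -2.67, -1.13 and -5.63 in clones 1 to 4, against -3.67, -4.21, -4.85 and -4.11 in normal calves 1 to 4, so that clone 3 was the highest and clone 4 the lowest of the 8 animals, as for IL6. Over all tested genes clone 3 was the highest of the 8 animals in 26.4% and clone 4 the lowest in 10.9%.

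Of 22 genes of IL1 receptor and inflammasome signalling 20 were tested, with a median of -0.04. NLRP3, the sensor that activates the caspase for IL1B and IL18, measured between -5.49 and -4.75 in clones, against -4.53 to -3.21 in normal calves. All clones lay below all normal calves, with a difference of -0.99 (adjusted p = 0.246). Its adaptor PYCARD differed by -0.84 and the receptor kinases IRAK2 and IRAK4 by 0.49 and -0.50 (adjusted p = 0.356, 0.317 and 0.428). Among 10 tested partner cytokines and receptors of 21 listed, the median was -0.03, with LIF, a relative of IL6, at 1.11, CSF1R at -0.38, OSM at -0.21 and CSF1 at -0.20. In the list drawn up for the response to IL17 and IL6, 11 of 15 were tested, with 5 positive and 6 negative differences. The median of -0.56 is the value of LIPC, a hepatic lipase. LIPC and TRAF3IP3 are not established response genes of these cytokines, so the sign of this median says little about the response. Haptoglobin, HP, an acute phase protein induced by IL6, measured between -4.65 and -0.02 in clones, against -1.72 to 0.35 in normal calves, with clones 2, 3 and 4 below every normal calf (log2 difference -2.26, adjusted p = 0.398). NFKBIZ, an NF-kB cofactor needed for IL6 induction, measured 0.69, 1.68, 3.64 and 0.13 in clones 1 to 4, against 0.04, 0.39, 0.24 and 0.07 in normal calves 1 to 4. Its highest animal was clone 3, as in 26.4% of all tested genes, and its difference was 1.35 (adjusted p = 0.436). FGG, a fibrinogen chain, differed by -1.43 with overlap (adjusted p = 0.399) and was well above background in 2 of 4 clones, so part of that value is a limit. TRAF3IP3 differed by -0.94 (adjusted p = 0.459).

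Markers of the leukocytes that make many interleukins also differed between the clones. The 6 tested macrophage markers of 9 listed had a mean of 2.46, 1.78, 3.13 and 1.56 in clones 1 to 4, against 3.12, 3.59, 3.09 and 3.33 in normal calves 1 to 4. All 6 had a negative difference, beside 5093 of all 9867 tested genes, with a median of -1.19, and 0 passed. Clones 2 and 4, the animals with the lowest IL1B, IL27 and IL4R, also had the lowest macrophage means. Of the list, CD163 and CD68 were lowest in clones 2 and 4, whereas C1QA and C1QB were lowest in clone 1. The 9 tested neutrophil markers of 10 listed had a mean of 0.16, -1.71, -0.32 and -1.16 in clones 1 to 4, against -0.57 to 0.07 in normal calves. The list was not uniform. Named after their values were seen, S100A8, S100A9 and S100A12 were highest of the 8 animals in clone 1, while ELANE, CXCR2 and CATHL5 were lower in all 4 clones than in all 4 normal calves, with differences of -1.20, -0.68 and -2.53 (adjusted p = 0.190, 0.209 and 0.229). Of the 9 markers, 6 had a negative difference and 3 a positive one, namely LTF at 1.57, MPO at 0.46 and S100A12 at 0.20. The 6 fibroblast markers had a mean of 2.96 to 3.92 in clones and 2.69 to 3.20 in normal calves. The 5 tested endothelial markers of 6 listed ranged from 1.56 to 3.89 in clones and from 3.02 to 3.32 in normal calves, with clone 1 the lowest and clone 3 the highest. None of these lists had a probe-bearing member that was below background on every array. The part of any of these cells in the interleukin values was not tested.

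**Figure D5:**
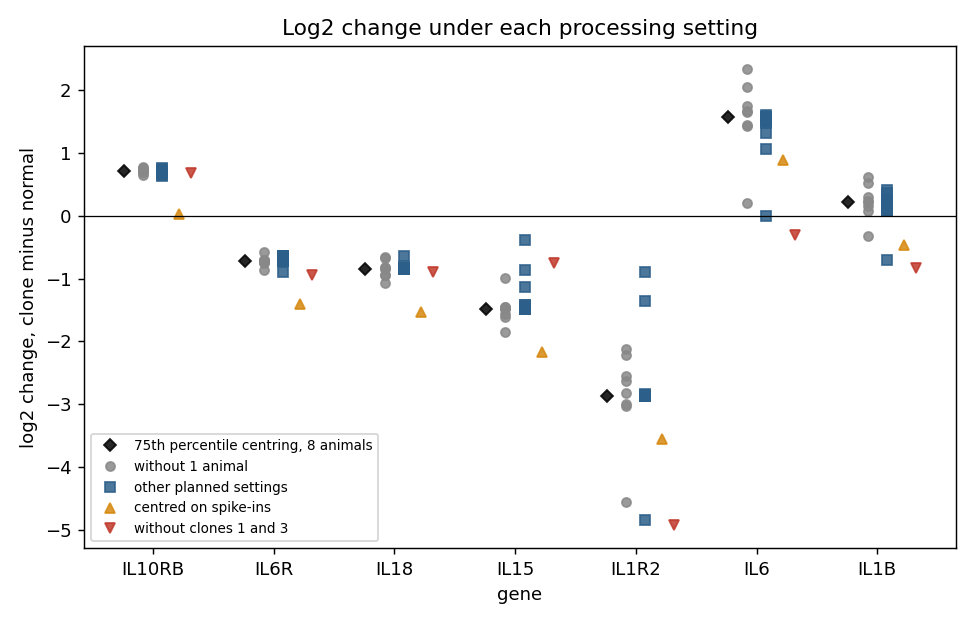
Log2 difference, clone minus normal (y axis), of 7 interleukin genes (x axis) under each processing setting, with symbols marking the kind of setting. IL6R, IL18, IL15 and IL1R2 stay below 0 in every setting shown, IL10RB drops to 0.03 with the spike-ins, and IL6 and IL1B cross 0.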

How the data were processed

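Lung RNA of 8 calves, labelled with Cy3, was hybridised to 1-colour Agilent arrays of the bovine transcriptome. Per the file headers, the deposited files hold the processed intensity of each spot, background-subtracted by Agilent Feature Extraction, not normalized between arrays. The submitters' processing notes name version 10.7. The authors' deposited value table holds a log2 value per probe, correlated with log2 processed signal at r of 0.999 or more, with column medians of 7.89 and 75th percentiles of 10.54. No source used here gives the step that aligned them.

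Control spots and 2 to 21 outlier spots per array were left out of 43803. No spot was saturated. The 75th percentile of an array was subtracted from its log2 processed intensities, spots were averaged into 43653 probes, and 35636 well above background on at least 4 of 8 arrays were tested with limma 3.58.1 in R 4.3.3 (lmFit, eBayes, group as sole term, 2-sided). Benjamini-Hochberg adjustment ran over all tested probes, with a threshold of 0.05. Accessions without versions were matched to RefSeq genes of ARS-UCD2.0, which named 23492 probes. The arrays' own design uses another build, so no coordinates are given. The files hold no probe sequences. Symbols such as IL13RA2, with a digit after the letters, were kept. The fit was tested on simulated data with the same spread in both groups. It recovered 3 of 50 probes with a log2 change of 1, and 30 of 50 with a change of 2. With changes of 3 and 4 it recovered 36 and 49 of 50. Of 125 calls, 7 were unchanged probes. A log2 change of 1 was thus mostly missed, and a gene that did not pass is not shown to be unchanged.

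The members and lists were chosen with earlier results of these data known. Named by rule were a listed set of interleukin genes, any other with an unadjusted p under 0.05, no overlap, a log2 change of at least 1 or a detection differing by 3 or 4 arrays between groups, and the 4 genes with the smallest p of each signalling list. A gene that this rule names is not reported here. Every other member is named with its values or counts. Nothing in the labels says that same-numbered animals are related. The number of arrays limits the precision. The scanner files have no mean signal column, so normexp used the median signal.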

Additional observations from a re-analysis of the deposited data

Results flagged for a closer look

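In each tested interleukin gene and each group of 4 animals, the gap between the most extreme animal and its nearest neighbour was set against the whole range of the group. Of 52 groups, 5 held an animal set apart by this measure, 3 among clones and 2 among normal calves, and chance alone flags about 1 group in 20. Clone 1 was set apart upward in IL1R2 (0.34, with the nearest clone at -5.71), in IL2RA (-1.21, nearest -2.74) and in IL21R (-0.88, nearest -2.96). Among normal calves, IL15 was low in normal calf 3 (-4.37, nearest -4.06) and IL27RA was high in normal calf 1 (2.81, nearest 2.47). IL6 in clone 3 did not meet this measure, because the other 3 clones were themselves spread.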

How the results depend on the processing

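Beside the fit of the report, 22 settings were tried. Centring on the spike-ins and leaving out clones 1 and 3, the arrays with the lowest array weights (0.12 and 0.10, against 1.66 to 4.13), were chosen after seeing the data. The log2 difference of 10 of 26 interleukin genes kept its sign in every setting that gave a value, and that of 16 turned in at least 1. The cause was not tested. IL15, IL1R2 and IL17RB gave no value with the filter on all 8 arrays.

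The 63 changed probes became 0 with normexp and 75th percentile centring (2282 with an unadjusted p under 0.05), 25 with normexp and quantile normalization, 17 with the filter on all 8 arrays, 146 with trend and robust settings, 13 with the replicate block, 11447 with array weights, 10699 with the spike-ins and 11331 without clones 1 and 3. Leaving out 1 animal gave 17 to 2562, namely 2562 when clone 1 was dropped, 451 for clone 3, 32 for clone 4, and 18, 23, 31 and 17 for normal calves 1 to 4. Same-numbered animals deviated together at r of 0.09, 0.10, -0.20 and -0.10, beside -0.18 to 0.17 for the other pairs of a clone and a normal calf. No pairing by number was seen, though so few pairs cannot exclude one. Under the replicate block 0 interleukin genes passed.

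Interleukin genes past the threshold numbered 10 with array weights (IL10, IL15, IL18, IL1R2, IL20RB, IL27, IL4R and IL6R lower, IL10RB and IL11RA higher), where 32.1% of all probes passed, and 11 without clones 1 and 3, the same genes and IL1B, where 31.8% passed. These settings both give little or no weight to clones 1 and 3 and are not independent. With the spike-ins 7 passed, all lower (IL10, IL15, IL17RC, IL18, IL22RA1, IL34 and IL6R), where the median interleukin difference was -0.65 and that of all probes -0.71. Leaving out 1 animal gave 0 to 3, with IL10RB, IL18 and IL1R2 past the threshold without clone 1, where 7.19% of all probes passed, and 0 without any other animal. Signalling genes past the threshold, of 55, numbered 11 with array weights, 15 with the spike-ins, 11 without clones 1 and 3, and 0 to 2 without 1 animal, with 2 without clone 1. The shares of all probes just given for these settings apply to these counts too. The median interleukin difference lay between -0.09 and 0.15 without 1 animal.

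Signs turned as follows. With quantile normalization IL27RA stood at -0.083, in the authors' table at -0.082 and with normexp and quantile normalization at -0.076. With centring on the median IL17RC stood at 0.011. With normexp and 75th percentile centring IL17B stood at -0.036, IL17RB at -0.82, IL1RAP at -0.075, IL21R at -0.040 and IL2RA at -0.16. With array weights IL16 stood at 0.13, IL1B at -0.71, IL1RAP at -0.11, IL27RA at -0.10, IL2RG at -0.11 and IL6 at -0.0039. With the mean of all probes IL21R stood at -0.28, IL33 at -0.035 and IL4R at 0.24. With the spike-ins IL11RA stood at -0.21, IL17B at -0.27, IL1B at -0.47, IL21R at -0.24, IL27RA at -0.68, IL2RA at -0.25, IL2RG at -0.62 and IL33 at -0.60. Without clones 1 and 3, IL16 stood at 0.16, IL1B at -0.83, IL1RAP at -0.15, IL27RA at -0.14, IL2RA at -0.030, IL2RG at -0.21 and IL6 at -0.32. Without 1 animal, IL17B ranged from -0.028 to 0.68, IL17RC from -0.14 to 0.10, IL1B from -0.33 to 0.62, IL20RB from -0.62 to 0.17, IL21R from -0.11 to 0.80, IL27 from -1.02 to 0.022, IL27RA from -0.23 to 0.14, IL2RG from -0.041 to 0.21, IL33 from -0.32 to 0.53 and IL4R from -0.58 to 0.33.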
